A study of Homo sapiens with 22 samples.

Results

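Cluster 3 of the treatment experiment held 4007 of its 40021 WM989 melanoma cells, and of 54001 cells in the whole series. Its members were taken from the authors' cluster label of each cell, with no further filter. WM989 is a human melanoma line with a BRAF mutation, and the subclone used here had been grown from single cells and carried a lentiviral library of transcribed lineage barcodes. The study asked how cells pass between a drug-susceptible state, in which BRAF and MEK inhibitors kill them, and a primed state that survives these drugs. Cells from a single sorted well were expanded and divided over 4 plates, which were left untreated or given TGFB1 at 5 ng/mL, the TGF-beta receptor inhibitor LY2109761 (TGFBRi) at 4 µM or the PI3K inhibitor GDC-0941 (PI3Ki) at 2 µM for 5 days, and this was done for 2 samples in parallel, here r1 and r2. All groups thus share the clone, the barcode vector and the culture history up to the split, and the findings concern 1 clone. The sample labels name the parallel sets Mix and Primed, and these names were not matched to r1 and r2. Of the untreated cells, 2.26% in r1 and 4.47% in r2 belonged to clusters 4 and 10. The study classed these as primed because most cells with known primed marker genes fell in them. All other clusters are called non-primed below.

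TGF-beta ligands such as TGFB1 bind a pair of receptor kinases, TGFBR2 and TGFBR1, which phosphorylate SMAD2 and SMAD3. These enter the nucleus with SMAD4 and act with partner factors, AP-1 among them, on genes of the extracellular matrix and of cell adhesion. The same signal switches on its own brakes, including SMAD7, SKIL, SMURF2 and PMEPA1. In melanoma, TGF-beta is known for matrix production and for loss of the melanocyte programme that SOX10 and MITF keep up. The 8 genes that mark cluster 3 fall into a few classes. IGFBP5 binds insulin-like growth factors in the matrix, CCN2 and THBS1 are secreted matricellular proteins, TNC is a matrix glycoprotein of remodelling tissue, OLFML2A is a secreted olfactomedin-domain protein, SERPINE2 inhibits thrombin and plasminogen activators, SORBS2 is an adaptor of actin and cell adhesion sites, and LNCAROD is a long noncoding RNA.

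Promoter sequences are shown for genes of the group in which the letters searched for below occurred, since these genes moved together with TGFB1. RefSeq promoters on hg38, each 300 bases long from 250 before to 50 after a transcript start, were searched on both strands for CAGAC (SMAD), GGAATG (TEAD, the partner of YAP) and TGANTCA (AP-1). All 8 markers matched a promoter, with 18 windows in all, and the 30 bases around a match are given 5′ to 3′ on the strand of the gene, with the searched letters or their reverse complement in capitals.

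IGFBP5: gcccctttcttaCATTCCggggggaggagg
OLFML2A: tggcttcctgctCATTCCcgtgccaattcc
CCN2: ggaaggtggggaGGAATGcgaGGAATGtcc
THBS1: gaggaatccccaGGAATGcgagcgcccctt
LNCAROD: cctgaagaaggTGAGTCAgaaaggaggtgg
SORBS2: tgctgggactgTGACTCAgacctcccttga
TNC: gtgggaaaggatGTCTGgaggcgaggcgtc
PMEPA1: tagcgctgacgtCAGACcGTCTGcctgcct
SKIL: gacggcggcggcGTCTGcgggaagctgtgt

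The IGFBP5 window lies at chr2:216695767-216695796 and the OLFML2A window at chr9:124800658-124800687. The CCN2 window, at chr6:131951459-131951488, holds GGAATG at 104 and again at 95 bases before the start, and a further match lies 169 bases before it. The THBS1 match stands 46 bases before the start, at chr15:39581021-39581050. The LNCAROD window is chr10:52455354-52455383 and the SORBS2 window chr4:185933140-185933169, where the last letters of the AP-1 match overlap a CAGAC. The TNC, PMEPA1 and SKIL windows are chr9:115118210-115118239, chr20:57709996-57710025 and chr3:170357596-170357625. Of the 8 marker genes, 6 held the TEAD letters, 4 the SMAD letters and 2 the AP-1 letters in at least 1 window. No share by gene over all genes was computed, so this count is not read as a result. SORBS2 alone had 8 of the 18 windows, and a gene with more windows has more chances of a match. By window, 33.3% of the 18 marker promoters held the TEAD letters, against 14% of all 35116 promoters. The SMAD letters were in 44.4% against 45.3%, and the AP-1 letters in 11.1% against 7.71%. A match is a description of the letters and not a binding site, and no SERPINE2 promoter held any of the searched letters.

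Cluster 3 was almost wholly a feature of the TGFB1 plates. It took 2182 of 5419 cells (40.3%, exact 95% interval 39.0 to 41.6) in TGFB1 r1 and 1619 of 5615 cells (28.8%, 27.7 to 30) in TGFB1 r2. In untreated cells it took 56 cells (1.35%) in r1 and 59 cells (1.60%) in r2. The PI3Ki plates held 23 (0.596%) and 52 cells (0.90%), and the TGFBRi plates 8 cells each (0.153% and 0.128%). The lowest TGFB1 library thus stood far above the highest other library, and both TGFBRi libraries stood below both untreated ones. Among non-primed cells alone the TGFB1 shares were 56.8% and 42.0%. The clusters were made from genes that respond to TGFB1, so these shares describe the members and were not tested. The intervals cover counting error only.

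**Figure D1:**
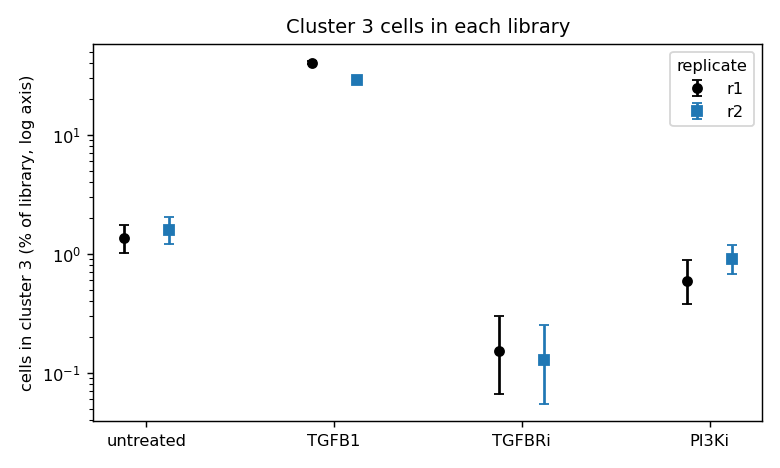
Share of cells in cluster 3, as a percent of all cells of a library on a log axis, for each treatment and replicate, with exact 95% intervals of counting error. The TGFB1 libraries stand at 40.3% and 28.8%, and the other 6 between 0.128% and 1.60%.

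The 8 libraries held 3692 to 6273 cells with medians of 13013 to 21720.5 UMIs (counted transcript molecules) per cell. Cluster 3 cells under TGFB1 had medians of 13091 (r1) and 12978 (r2) UMIs, the other non-primed TGFB1 cells 17787.5 and 17572, and untreated non-primed cells 18526 and 21929. The mitochondrial share was 10.5% and 10.3% in cluster 3 and 10.3% in both sets of other non-primed TGFB1 cells. Of 39827 distinct cell barcodes, 194 occurred in more than 1 library, and 40 cluster 3 cells carried such a barcode. Levels below are UMI counts summed over the cells of a group and given per 1000000 counts (CPM), so they do not depend on the number of cells, and a log2 ratio is that of CPM + 1.

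State genes were read in cluster 3 as a description. SOX10, the transcription factor of the melanocyte lineage, stood at 143 and 155 CPM in cluster 3 (r1 and r2), 136 and 135 CPM in untreated non-primed cells and 30.5 and 29.5 CPM in primed cluster 4 of the TGFB1 plates. MITF, the master regulator of melanocyte genes, stood at 231 and 253 CPM in cluster 3, against 326 and 374 CPM untreated and 58.5 and 63.2 CPM in cluster 4. EGFR, a receptor by which primed cells are sorted, was at 1.97 and 2.17 CPM in cluster 3, against 1.24 and 1.49 CPM untreated and 15.3 and 18.5 CPM in cluster 4. For NT5E, a surface marker of the primed state, cluster 3 (13.8 and 20.3 CPM) lay below untreated cells (15.1 and 28.3 CPM), and cluster 4 stood at 94.1 and 132 CPM. AXL, a receptor kinase of the primed state, lay between the states, with 5.57 and 6.14 CPM in cluster 3, 0.208 and 0.605 CPM untreated and 37.0 and 48.1 CPM in cluster 4. NGFR, the other receptor used for sorting, had 0.935 and 4.38 CPM in cluster 3, 0.404 and 2.77 CPM untreated and 5.01 and 13.9 CPM in cluster 4, and so also lay between the states, with replicates further apart than cluster 3 and untreated cells. Cluster 3 thus lay near untreated cells for SOX10, EGFR and NT5E, and between the states for MITF, AXL and NGFR. The study chose the primed clusters by known primed marker genes in these same cells. The label and these genes are therefore not independent, and their match is not a check of the label. Of the 17 melanocyte genes, 15 reached 20 CPM and none was called in either direction against untreated cells, with a median log2 ratio of -0.05 beside -0.03 over all genes. None of the 15 was called against the other non-primed TGFB1 cells either, where the median was -0.29 beside -0.06 and 10 were lower in both replicates. In the untreated members the median was -0.58 beside -0.08 against other untreated cells, again with none called.

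Of 12 markers of other cell types, only CD68, LUM and KRT18 reached 20 CPM, and none was called against either non-primed group. The 12 summed to 147 and 134 CPM in cluster 3, 158 and 161 CPM in the other non-primed TGFB1 cells and 146 and 152 CPM in untreated non-primed cells. CD3E of T cells, CDH5 of endothelium, and EPCAM and KRT5 of epithelium had no UMI in cluster 3 in either replicate. In r1 these were the only 4 of the 12 at 0, and in r2 6 were at 0. PTPRC of leukocytes, PECAM1 of endothelium, KRT14 of epithelium and PDGFRA thus had UMIs in r1, below 20 CPM. Cells were filtered by the authors on the number of genes per cell, which also removes likely doublets, and no doublet caller was run here.

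Cluster 3 was first compared with untreated non-primed cells, which asks how they differed from cells of the same state without the ligand. The 8 markers were all at least 2-fold higher in both replicates, and so were fibronectin (FN1), the gelatinase MMP2, the SMAD feedback gene PMEPA1 and the matrix-bound growth factor binder IGFBP7. The comparison had no test, since the clusters were made from these genes. A gene was called when it was at least 2-fold apart the same way in r1 and in r2, with at least 20 CPM in the higher group. Of 5741 genes, 61 were higher (1.06%) and 55 lower (0.958%) in cluster 3. With G1 cells alone on both sides these were 63 (1.14%) and 10 (0.181%) of 5535.

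IGFBP5 stood at 262 and 210 CPM in cluster 3 (r1 and r2) against 20.6 and 14.3 CPM untreated, log2 ratios of 3.604 and 3.78. SERPINE2 stood at 1141 and 1158 CPM against 173 and 210 CPM, log2 ratios of 2.71 and 2.46. SORBS2 stood at 98.1 and 110 CPM against 16.7 and 21.7 CPM, log2 ratios of 2.48 and 2.29. In each of the 3 the lower cluster 3 replicate was above the higher untreated one by more than 4-fold, and the replicates differed far less than the groups. CCN2 had 37.4 and 43.7 CPM in cluster 3 and 6.80 and 7.25 CPM untreated. THBS1 had 28.2 and 44.4 CPM against 1.28 and 2.97 CPM. LNCAROD had 34.6 and 25.7 CPM against 3.93 and 2.78 CPM. For OLFML2A (24.6 and 24.9 CPM against 4.90 and 4.64 CPM) and TNC (24.4 and 28.1 CPM against 3.30 and 5.51 CPM) the log2 ratios lay between 2.12 and 2.56.

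FN1, a matrix scaffold and a gene of the primed state, reached 1170 and 1355 CPM in cluster 3 against 43.7 and 52.1 CPM untreated, log2 ratios of 4.71 and 4.68. PMEPA1, which binds SMADs and dampens the signal, had the largest ratio of the 61 genes, with 205 and 208 CPM against 3.58 and 4.45 CPM (log2 5.49 and 5.26). The other two feedback genes called were SKIL, a SMAD corepressor, at 38.2 and 45.8 CPM against 4.03 and 5.38 CPM, and SMURF2, a ubiquitin ligase of the receptor, at 42.2 and 49.7 CPM against 12.3 and 14.2 CPM. Thus 3 of 14 SMAD and feedback genes were higher, of 8 that reached the minimum, beside 1.06% higher over all genes. All 3 reached 20 CPM only in cluster 3, so the count over the genes at the minimum is a description. No ligand, latency protein or receptor of the 19 listed was called, and 3 reached the minimum. BMPR2, a receptor of the related BMP branch, had 58.5 and 62.1 CPM against 36.5 and 37.0 CPM, LTBP3, which stores latent TGF-beta in the matrix, 23.5 and 22.2 CPM against 13.8 and 12.2 CPM, and TGFBR1 19.5 and 22.8 CPM against 23 and 26.2 CPM.

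Of 38 matrix and matricellular genes, 14 reached the minimum and 9 were higher: TNC, THBS1, FN1, COL6A1, COL6A2, MGP, OLFML2A, CCN2 and CCN3. Of the 9, TNC, THBS1, OLFML2A and CCN2 are markers of the cluster, and all but FN1 reached 20 CPM only in cluster 3, so the count over the genes at the minimum is a description. The collagen VI chain COL6A2 had 27.0 and 27.3 CPM in cluster 3 against 8.40 and 6.32 CPM untreated. MGP, a calcification inhibitor of the matrix, had 56.9 and 47.6 CPM against 8.90 and 11.4 CPM. The fibrillar collagen gene COL1A1 was at only 4.44 and 4.65 CPM, against 167 and 182 CPM in cluster 4. Of 7 IGF-binding proteins, IGFBP5 and IGFBP7 were higher, while IGFBP2 had 115 and 108 CPM against 182 and 159 CPM untreated and was not called. Of 11 plasminogen activators and serpins, 2 were higher: SERPINE2 and PLAT, the tissue plasminogen activator, at 85.6 and 98.2 CPM against 32.0 and 40.3 CPM.

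Of 18 TGF-beta target genes 5 reached the minimum and only FN1 was called, while JUNB, an AP-1 subunit, had 40.8 and 38.5 CPM against 32.1 and 32.7 CPM, and ID3, an inhibitor of differentiation factors, 65.8 and 64.1 CPM against 40.2 and 47.4 CPM. Of 22 YAP/TEAD targets 4 reached the minimum and only CCN2 was called. Of 18 actin and contractile genes 12 reached it and only SORBS2 was called, with TPM1, a tropomyosin, at 70.4 and 65.8 CPM against 40.9 and 39.8 CPM. Of 12 EMT transcription factors and cadherins 6 reached it and 2 were higher: PRRX1, a mesenchymal homeobox factor (94.0 and 85.3 CPM against 39.9 and 35.2 CPM), and N-cadherin, CDH2 (22.6 and 28.3 CPM against 10.3 and 10.8 CPM). SNAI2, another EMT factor, had 50.6 and 58.1 CPM against 45.1 and 44.1 CPM. Of 17 genes that the study names for the primed state, 5 reached the minimum, FN1, SERPINE2 and the growth factor PDGFA were higher, and VGF, a secreted neuropeptide precursor, was lower. Of 4 genes that it names for an intermediate state, FN1, SERPINE2 and MGP were higher, and NFATC2, a calcium-regulated factor, had 25.1 and 26.1 CPM against 20.8 and 23 CPM.

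VGF stood at 132 and 243 CPM in cluster 3 against 784 and 1341 CPM in untreated non-primed cells, log2 ratios of -2.56 and -2.46. Among the non-primed TGFB1 clusters with at least 50 cells, the others held 214 to 4578 CPM in r1 and 441 to 4646 CPM in r2, with clusters 2 and 8 at the top. Cluster 3 was thus below every one of these clusters in the same replicate. Low VGF was shared with primed cluster 4 of the TGFB1 plates, which had log2 ratios of -2.54 and -1.79 to untreated non-primed cells. Cells of G1 alone gave 126 and 233 CPM in cluster 3.

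**Figure D2:**
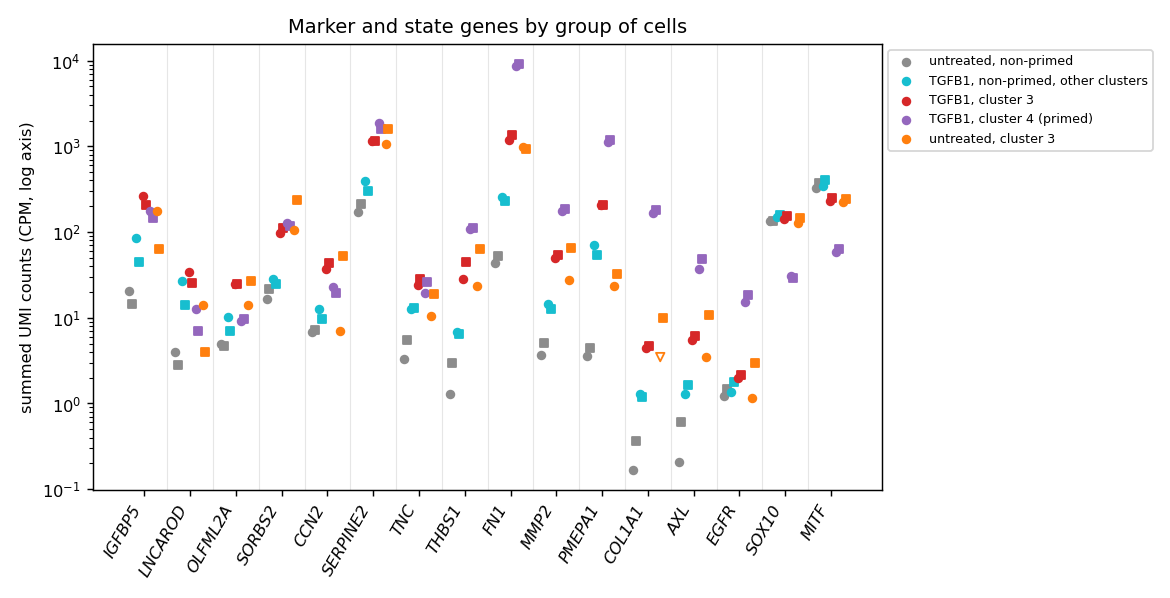
CPM of the 8 markers and 8 state genes on a log axis, for 5 groups of cells, with a circle for r1 and a square for r2; an open triangle marks a count of 0 drawn at the level of 3 counts. Cluster 3 under TGFB1 (red) lies near cluster 4 (purple) for IGFBP5 and SORBS2, near untreated cells (grey) for SOX10 and EGFR, and between both for FN1 and PMEPA1.

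The genes just inside and outside the 2-fold rule against untreated cells were LINC00511 and PRSS23, with smaller log2 ratios of 1.01, and KLF9 and SLC25A37, with 0.99. The genes next to the limit against other TGFB1 cells were GADD45B (1.03) and PDGFA (1.02) inside and SOX4 (0.97) and COL6A2 (0.95) outside.

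The closest comparison kept the treatment constant and set cluster 3 against the non-primed TGFB1 cells of all other clusters, 1660 cells in r1 and 2239 in r2. Of 5708 genes, 18 were higher (0.315%) and 91 lower (1.59%). All 8 markers were higher in both replicates and 6 were called, with TNC (log2 0.91 and 1.06) and LNCAROD (0.34 and 0.83) short of 2-fold in at least 1 replicate. The rule for cluster 3 rests on these cells' genes, so these counts carry no test.

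The highest ratio was that of FN1, with 258 and 232 CPM in the other TGFB1 cells against 1170 and 1355 CPM in cluster 3 (log2 2.18 and 2.54). IGFBP5 had 84.9 and 45.1 CPM in the other TGFB1 cells, between the untreated and the cluster 3 levels. SERPINE2 had 391 and 298 CPM there, and PMEPA1 71.1 and 53.8 CPM. All 4 genes were therefore above untreated cells outside cluster 3 as well. Among the other higher genes were MMP2, RUNX1 (a transcription factor, 46.7 and 57.2 CPM against 20.1 and 17.1 CPM), CADPS (a regulator of vesicle release, 101.2 and 93.9 CPM against 39.5 and 35.5 CPM), IGFBP7, CBLB, MXD4, PNRC1, GADD45B and PDGFA. No SMAD or feedback gene but PMEPA1 was called, and none of the 19 ligand, latency and receptor genes.

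Outside cluster 3 the non-primed cells of the TGFB1 plates were set against untreated non-primed cells outside cluster 3. Of 5662 genes 13 were higher (0.23%) and none lower (0%): PMEPA1, FN1, SKIL, IGFBP5, MGP, AEBP1, NAV2, SLC7A5, LMO7, S100A2, SH3BP1, APOD and FAM210B. FN1 (log2 2.92 and 2.49), PMEPA1 (4.05 and 3.43) and SKIL (2.34 and 2.22) were thus higher in them too. SORBS2 (0.81 and 0.37) was not called. OLFML2A (0.96 and 0.58) and CCN2 (0.79 and 0.47) stayed under 20 CPM and so could not be called, and only 3 of the 8 markers reached it. These cells were left outside cluster 3 for their expression, so the comparison is a description. The spread among those clusters was wide. In r1 IGFBP5 went from 18.7 CPM in cluster 9 to 112 CPM in cluster 1, and in r2 from 9.72 to 82.7 CPM (clusters 9 and 7), with cluster 3 at 262 and 210 CPM. FN1 reached 450 and 475 CPM in cluster 7, a cluster of G2M cells, as the highest outside cluster 3. Within the TGFB1 plates no other non-primed cluster of at least 50 cells reached cluster 3 for FN1, IGFBP5, SERPINE2, SORBS2, PMEPA1 or THBS1.

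The cell cycle moved with the cluster. By the authors' phase call, 60.8% (r1) and 61.4% (r2) of cluster 3 cells were in G1 and 7.97% and 9.70% in G2M. Of the other non-primed TGFB1 cells 13.3% and 24.0% were in G1 and 50.2% and 43.1% in G2M, and of untreated non-primed cells 33.4% and 31.3% were in G1. A high G1 share was not particular to cluster 3. On the TGFB1 plates, clusters 0 (60.5% and 60%), 2 (51% and 56.9%) and 9 (58.6% and 66.9%) had it too. The phase calls were made at unequal depth, with fewer UMIs in cluster 3, and the part of depth in them was not tested. All 12 mitotic genes were lower than in the other TGFB1 cells (median log2 ratio -1.99, beside -0.06 over all genes), each called. All 12 were also lower than in untreated cells in both replicates, and 10 of these were called. UBE2C, a ubiquitin-conjugating enzyme of mitosis, had 35.2 and 40.4 CPM against 230 and 194 CPM in the other TGFB1 cells and 116 and 121 CPM untreated. Of 15 G1/S and replication genes 13 reached 20 CPM, and 11 of these were lower in both replicates than in the other TGFB1 cells, but only RRM2, a subunit of ribonucleotide reductase, was called lower (57.3 and 63.5 CPM against 159 and 143 CPM), and none was called against untreated cells. None of 10 D cyclins and CDK inhibitors was called in either comparison, with CCND1 (cyclin D1) at 571 and 629 CPM in cluster 3, 444 and 497 CPM untreated and 380 and 468 CPM in the other TGFB1 cells.

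With G1 cells alone on both sides, 32 of 5504 genes were higher in cluster 3 (0.581%) and 9 lower (0.164%). All 18 genes higher with all cells reached the minimum in G1 and were higher there, and 14 of them were called again. Of the 91 lower genes only 32 reached the minimum in G1, 29 of these were lower in both replicates, and only VGF was called again. Of the 12 mitotic genes 5 reached it. In G1, FN1 had log2 ratios of 3.62 and 3.69, IGFBP5 2.94 and 3.37, SORBS2 2.84 and 2.64 and TNC 2.33 and 1.61. For these genes the ratio within G1 was larger than that over all cells. The comparison cells in G1 were only 221 in r1 and 537 in r2. TGFB1 cluster 1 (FN1 at 285 and 274 CPM) gave 4 and 1 of these, and cluster 7 (450 and 475 CPM) gave 0. The larger ratio thus mixes phase with a change of comparison clusters, and their parts were not tested. Cluster 3 was made from these genes, so the agreement in G1 is a description. The few cells of cluster 3 called G2M (174 and 157) had FN1 at 2044 and 2187 CPM, THBS1 at 69.5 and 85.6 CPM and SERPINE2 at 1792 and 1737 CPM, in each case above the G1 cells of the cluster. MITF was 0.59 and 0.67 lower on the log2 scale against all other TGFB1 cells and 0.04 and 0.33 lower within G1, and it was not called in either.

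**Figure D3:**
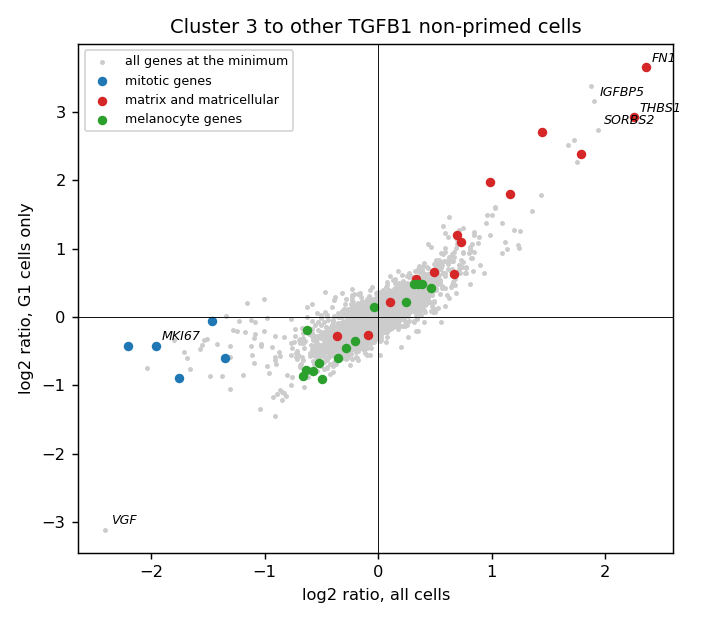
Mean log2 ratio of r1 and r2, cluster 3 to other non-primed TGFB1 cells, with all cells on the horizontal axis and G1 cells alone on the vertical axis, for genes at 20 CPM in both. Matrix genes such as FN1 and THBS1 stay high on both axes, the 5 mitotic genes that reach the minimum lie nearer 0 on the vertical axis, and VGF stays low.

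The response was also read cell by cell at equal depth, with every cell thinned to 5000 UMIs (at most 4 cells of a group fell below this number). Cluster 3 cells had on average 2.25 (r1) and 2.18 (r2) of the 8 markers, the other non-primed TGFB1 cells 1.44 and 1.098, and untreated non-primed cells 0.742 and 0.759. In cluster 3, 38.4% and 37.0% of cells had 3 or more markers, against 14.8% and 8.46% of other TGFB1 cells and 2.24% and 3.15% of untreated cells. Primed cluster 4 of the same plates had 2.39 and 2.29 markers on average, and 43.4% and 40.2% of its cells had 3 or more. Carrying several of these markers was thus not particular to cluster 3. IGFBP5 was seen in 47.5% and 38.7% of thinned cluster 3 cells (66.5% and 57.1% unthinned) and in 7.94% and 5.39% of untreated ones (22.6% and 18.1% unthinned). SORBS2 was seen in 32.2% and 34.8% of thinned cluster 3 cells (51.8% and 55.2% unthinned) and in 8.06% and 8.82% of untreated ones. EGFR was seen in 0.504% and 0.742% of thinned cluster 3 cells, and in 0.567% and 0.794% of untreated ones. A share of cells with a UMI can include free RNA taken up from other cells. The lowest level in cluster 3 of any gene with at least 100 CPM in cluster 4 was 1.43% of the cluster 4 level in r1 (SPOCK1), and free RNA of cluster 4 would raise all its genes by the same percent. FN1 stood at 13.6% and 14.9%, PMEPA1 at 18.1% and 17.7%, SERPINE2 at 60.6% and 73.6% and IGFBP5 at 148% and 144% of the cluster 4 level.

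Against primed cluster 4 of the same plates (1548 and 1706 cells), 342 of 5943 genes were higher in cluster 4 (5.75%) and 270 lower (4.54%). Of the 8 markers, THBS1 was higher in cluster 4, LNCAROD and OLFML2A were higher in cluster 3, and the other 5 were not called. Of the 12 mitotic genes 9 were called higher in cluster 4, with UBE2C at 188 and 184 CPM there. The stress and dissociation genes FOS, FOSB and EGR1 were called higher in cluster 4 as well, of 5 that reached 20 CPM, and the 10 genes of that list summed to 487 and 468 CPM in cluster 4 and 229 and 224 CPM in cluster 3. Of the markers of other cell types, KRT18 was higher in cluster 4 (183 and 162 CPM against 83.7 and 74.6 CPM) and LUM was lower (12.8 and 10.0 CPM against 28.5 and 25.6 CPM), and the 12 summed to 249 and 223 CPM in cluster 4. The part of any of these in the differences between the clusters was not tested. Of 413 genes higher in cluster 4 than in untreated non-primed cells, cluster 3 stood a median 27.7% (r1) and 29.2% (r2) of the way on the log2 scale, and 41 were called higher in cluster 3 too. Of 356 genes lower in cluster 4, it stood a median 20.4% and 20.5% of the way, and 6 were called.

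A few untreated cells also carried the cluster 3 label, 56 in r1 and 59 in r2. Against other untreated non-primed cells, 61 of 5720 genes were higher (1.07%) and 30 lower (0.524%). FN1 was at 975 and 924 CPM in them, close to the TGFB1 members. SERPINE2 was at 1073 and 1587 CPM and SORBS2 at 105 and 235 CPM. IGFBP5 was at 175 CPM in r1 (exact Poisson 95% interval 148 to 205) and 63.0 CPM in r2 (48.5 to 80.5). These genes stood above the untreated non-primed level in both replicates, and the replicates of SERPINE2 (intervals 1005 to 1144 and 1511 to 1667), SORBS2 and IGFBP5 differed by more than counting error. CCN2 was at 6.95 CPM in r1 (6 UMIs, interval 2.55 to 15.1), the level of other untreated cells, and at 53.2 CPM in r2 (54 UMIs). PMEPA1 was at 23.2 and 32.5 CPM, well under the 205 and 208 CPM of the TGFB1 members. Of the stress and dissociation genes FOSB was called higher (75.3 and 58.1 CPM against 34.1 and 24.8 CPM in other untreated cells), and the 10 summed to 234 and 219 CPM against 224 and 227 CPM. The part of handling in these values was not tested.

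Of the 8 markers 4 reached 20 CPM in both replicates of the untreated members or their comparison cells. These 4 (IGFBP5, SORBS2, SERPINE2 and THBS1) were called. All but SERPINE2 reached the minimum only through the members, where they are high, so this count is a description. Of the 18 genes higher in cluster 3 under TGFB1, 13 (72.2%) were also among the 61 higher in untreated members (21.3% of those), and 22 of the 91 lower genes (24.2%) were among the 30 lower ones (73.3%). The same clustering placed both sets of cells by these genes, so this overlap follows from the choice of members and supports nothing. ANXA1, a calcium-dependent membrane protein, was among the 5 highest, at 22 and 47.3 CPM in the untreated members against 6.74 and 8.17 CPM in the TGFB1 members. PRKG2, a cGMP-dependent kinase, was among the lowest, at 6.95 and 2.95 CPM against 20.7 and 20.1 CPM in untreated non-primed cells. Phase moved with these cells too, with 50% and 55.9% in G1 and 8.93% and 11.9% in G2M. Without r1 the counts were 211 higher and 117 lower, and without r2 107 and 95. A gene then needed 1 replicate only, and the cause of the shifts was not tested. This check was added after the data were seen.

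The PI3Ki plates held 75 cells of the cluster, with FN1 at 1082 and 558 CPM, SERPINE2 at 1073 and 1019 CPM, SORBS2 at 275 and 288 CPM and IGFBP5 at 32.2 and 111 CPM. With 8 cells in each TGFBRi library, FN1 was at 798 CPM (interval 620 to 1012) and 1463 CPM (1225 to 1734), and no gene is described further there.

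Whole libraries allowed a test that used no cluster. Counts were summed over all cells of each of the 8 libraries and fitted with edgeR's quasi-likelihood test with a term for the replicate, over 18389 genes with Benjamini-Hochberg adjustment. In such sums, more cells of a type and more RNA per cell cannot be told apart, and the 3 treatments were all compared with the same untreated libraries. TGFB1 raised 2990 genes (16.3%) and lowered 2334 (12.7%). TGFBRi raised 200 (1.09%) and lowered 266 (1.45%), and PI3Ki raised 1072 (5.83%) and lowered 1256 (6.83%). The replicates were samples handled in parallel, and the p-values measure the spread between these libraries.

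All 8 markers rose with TGFB1, with a median log2 fold change of 2.07 beside 0.0059 over all genes. They were chosen with these libraries known, so this count is not independent evidence of the direction. IGFBP5 went from 21.4 and 16.9 CPM untreated to 174 and 114 CPM (log2 2.88 ± 0.08 SE, adjusted p = 3.2e-17, edgeR). THBS1 went from 1.86 and 4.52 CPM to 39.9 and 43.2 CPM (3.75 ± 0.17) and LNCAROD from 4.098 and 2.94 CPM to 26.3 and 15.4 CPM (2.53 ± 0.13). SERPINE2 (2.15 ± 0.11), TNC (1.99 ± 0.13), SORBS2 (1.88 ± 0.10), CCN2 (1.64 ± 0.10) and OLFML2A (1.49 ± 0.09) rose as well. For each of the 8 both TGFB1 libraries lay above both untreated ones, as they did for 32.3% of the 18389 genes tested. With non-primed cells alone, 1533 genes rose and 1132 fell, and all 8 markers were called again.

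Under TGFBRi 1 of the 8 markers changed and under PI3Ki 6 did. LNCAROD fell with TGFBRi to 1.31 and 1.40 CPM (log2 -1.35 ± 0.18, adjusted p = 7.6e-05, edgeR), and with PI3Ki to 2.02 and 1.99 CPM (-0.65 ± 0.16). IGFBP5 fell with PI3Ki to 11.8 and 8.91 CPM (-0.79 ± 0.08, adjusted p = 1.1e-06, edgeR), while under TGFBRi it was at 24.1 and 19.6 CPM (0.21 ± 0.08) and did not pass. TNC fell with PI3Ki to 1.28 and 2.59 CPM (-1.23 ± 0.16), OLFML2A to 3.15 and 2.36 CPM (-0.74 ± 0.11) and SERPINE2 to 141 and 156 CPM (-0.43 ± 0.11). CCN2 alone of the 8 rose with PI3Ki, to 9.84 and 8.73 CPM from 6.94 and 7.49 CPM (0.46 ± 0.10, adjusted p = 0.0036, edgeR). SORBS2 (adjusted p = 0.056) and THBS1 (adjusted p = 0.057) missed the threshold of edgeR under PI3Ki. The median of the 8 was -0.30 under TGFBRi and -0.65 under PI3Ki, beside 0.0031 and 0.0026 over all genes. Without the replicate term the calls of LNCAROD with TGFBRi and of IGFBP5, LNCAROD, CCN2, SERPINE2 and TNC with PI3Ki were lost. DESeq2 did not call LNCAROD or SERPINE2 with PI3Ki. Among single libraries left out, the PI3Ki call of CCN2 was lost without PI3Ki r2 or untreated r1, that of LNCAROD without PI3Ki r1, and that of SERPINE2 without PI3Ki r1, PI3Ki r2 or untreated r2.

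The next genes were picked as highest or lowest in cluster 3 of these same TGFB1 libraries, so their direction with TGFB1 is not independent evidence. Of the other genes highest in cluster 3, FN1 rose with TGFB1 from 99.9 and 163 CPM to 2668 and 2798 CPM (4.42 ± 0.13), and fell with TGFBRi to 63.8 and 110 CPM (-0.59 ± 0.12) and with PI3Ki to 29.8 and 42.4 CPM (-1.74 ± 0.12). PMEPA1 rose with TGFB1 by 6.08 ± 0.12 and fell by 2.35 ± 0.16 with TGFBRi, to 0.848 and 1.34 CPM, and by 0.55 ± 0.13 with PI3Ki. IGFBP7 rose by 3.05 ± 0.14 with TGFB1, fell by 0.64 ± 0.15 with TGFBRi and fell by 2.04 ± 0.16 with PI3Ki. MMP2 rose by 3.41 ± 0.12 with TGFB1 and fell by 1.43 ± 0.14 with PI3Ki, and under TGFBRi it was at 4.73 and 7.88 CPM against 5.26 and 7.63 CPM untreated. VGF ran the other way: it fell with TGFB1 (-0.97 ± 0.13) and rose with TGFBRi to 1453 and 2388 CPM from 795 and 1356 CPM (0.86 ± 0.13). The TGFBRi calls of FN1 and IGFBP7 were lost with DESeq2, without the replicate term, with non-primed cells only and without untreated r2, and FN1 also without TGFBRi r1 and IGFBP7 without TGFBRi r2. The PI3Ki call of PMEPA1 was lost in the same 3 fits and without PI3Ki r1 or untreated r2, and the TGFB1 call of VGF without the replicate term.

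**Figure D4:**
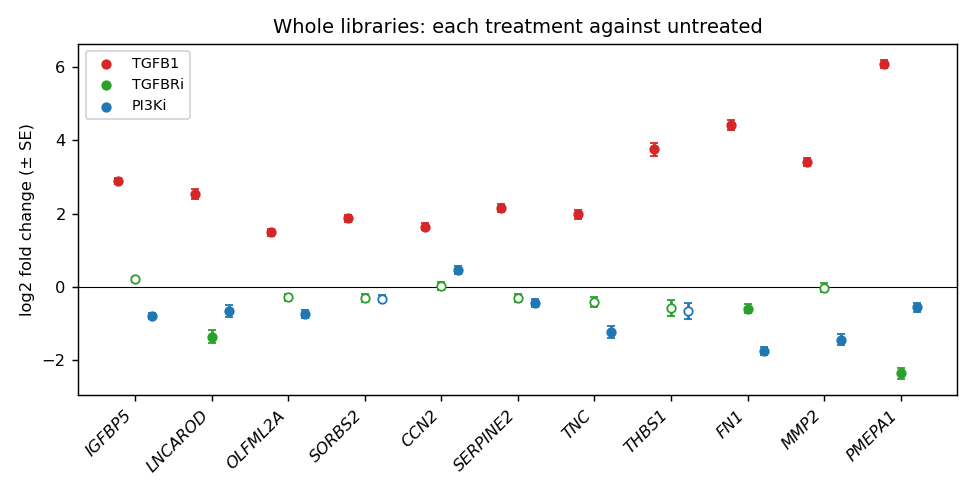
Log2 fold change of each treatment against untreated in whole-library sums for the 8 markers and 3 further genes, with edgeR's standard error; filled points have an adjusted p under 0.05 and open points do not. All 11 genes rose with TGFB1, and most lay below 0 under PI3Ki, with CCN2 above it. The genes were chosen with these libraries known, so their rise with TGFB1 is not independent evidence.

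The pathway lists below are to be read beside the shares over all 18389 genes in the same fit. These were 16.3% up and 12.7% down with TGFB1, 1.09% and 1.45% with TGFBRi, and 5.83% and 6.83% with PI3Ki. A count near these shares is not a result about its list. Of 14 SMAD and feedback genes 11 rose with TGFB1 and none fell (SMAD7 by 2.29 ± 0.08, SKIL by 3.40 ± 0.10), and 5 fell with TGFBRi (SMAD6, SMAD7, SKIL, PMEPA1 and TGIF1) while SMAD3 rose. Under PI3Ki 3 fell and none rose. Of 18 ligand, latency and receptor genes tested, 10 rose and 3 fell with TGFB1, 1 rose and 1 fell with TGFBRi, and 1 rose and 6 fell with PI3Ki. TGFB1 itself rose by 1.30 ± 0.07 and TGFBR2 by 1.05 ± 0.09 under the ligand. Of 18 TGF-beta targets 14 rose and 1 fell with TGFB1, none rose and 5 fell with TGFBRi, and 4 rose and 6 fell with PI3Ki. COL1A1 rose by 5.06 ± 0.12 with TGFB1 and was also called in cluster 4 against cluster 3. Of 32 matrix genes tested 25 rose and 1 fell with TGFB1, 2 rose and 2 fell with TGFBRi, and 1 rose and 21 fell with PI3Ki, the riser being CCN2. Of 21 YAP/TEAD targets tested 14 rose and 1 fell with TGFB1, 1 rose with TGFBRi, and 1 rose and 8 fell with PI3Ki.

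Of 5 IGF-binding proteins tested 3 rose and 1 fell with TGFB1, 1 rose and 1 fell with TGFBRi, and 1 rose and 2 fell with PI3Ki. Of 9 plasminogen activators and serpins tested the counts were 5 and 1, 2 and 1, and 0 and 4. Of 16 actin and contractile genes tested 14 rose with TGFB1, none changed with TGFBRi and 6 fell with PI3Ki. Of 10 EMT factors and cadherins tested 3 rose and 1 fell with TGFB1, none changed with TGFBRi, and 1 rose and 1 fell with PI3Ki. Of 17 primed-state genes 13 rose and 1 fell with TGFB1, 1 rose and 1 fell with TGFBRi, and 14 fell with PI3Ki, and the study chose them on cells of this kind. Of the 4 intermediate-state genes 3 rose with TGFB1, 1 rose and 1 fell with TGFBRi and 3 fell with PI3Ki.

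Of 17 melanocyte genes 2 rose and 7 fell with TGFB1, among the latter MITF by 0.46 ± 0.07, while SOX10 did not pass (-0.17 ± 0.07, adjusted p = 0.064, edgeR). With non-primed cells only MITF was no longer called (-0.15) and SOX10 stood at 0.14. TGFBRi lowered 1 of the 17, and PI3Ki raised 6 and lowered 1. Of 12 mitotic genes 3 rose and 1 fell with TGFB1, none changed with TGFBRi and 8 fell with PI3Ki. Of 15 G1/S genes 1 rose and 6 fell with TGFB1, none changed with TGFBRi and 1 rose with PI3Ki, and of 9 D cyclins and CDK inhibitors tested 4 rose and 2 fell, none changed, and 1 rose and 3 fell. Stress and dissociation genes, a sign of handling, moved in each plate: of 10, 4 rose and 2 fell with TGFB1, 4 rose with TGFBRi, and 2 rose and 3 fell with PI3Ki. The 10 summed to 314 and 320 CPM in the TGFB1 libraries and 233 and 234 CPM in the untreated ones, and to 229 and 224 CPM in cluster 3 itself. None was called in the TGFB1 cells of cluster 3 against other non-primed TGFB1 or untreated cells, and their part in the other results was not tested. Of 7 markers of other cell types tested, 3 rose with TGFB1 (PECAM1, KRT18 and PDGFRA), 1 fell with TGFBRi, and 1 rose and 1 fell with PI3Ki. The 7 summed to 146 and 153 CPM untreated, 177 and 170 CPM with TGFB1, 132 and 145 CPM with TGFBRi and 146 and 154 CPM with PI3Ki, and their part in the results was not tested.

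The first experiment, of untreated WM989 cells, was searched for cells with the same genes. By the methods, its cells came from a well sorted as mixed and a well sorted as EGFR/NGFR-high, each expanded and then divided over wells of the loading chip. The methods name 2 chip wells for each sort, while the file names 8 wells, and how these relate was not settled here. Wells can thus share a culture and were not treated as replicates. They differ in the cells they hold, with primed cluster 2 at 0.182% to 54.2% of a well. Of its 8 drug-susceptible clusters, cluster 4 (1202 cells, 9.59% of cells, 73.3% of them in G1, and present in all 8 wells at 3.61% to 11.1%) was singled out after its values were seen and compared with the other 7. Of the 8 markers, 3 reached 20 CPM in some drug-susceptible cluster, and all 3, which reached it in other clusters too, were highest in cluster 4, as were 587 of 6415 genes at that minimum (9.15%). SORBS2 was at 128 CPM there and at 21.7 to 43.8 CPM in the other 7. SERPINE2 was at 398 CPM against 103 to 285 CPM, and IGFBP5 at 62.3 CPM against 11.9 to 29.3 CPM. For these 3 genes no other drug-susceptible cluster came within its level. LNCAROD, listed under an older symbol, had 6 UMIs in that cluster and at most 2 in any other drug-susceptible one, so its rank rests on counting error. The intermediate-state genes NFATC2 (77.3 CPM) and MGP (79.4 CPM) were highest there as well, and 1.40 to 13.1 CPM and 0.589 to 6.09 CPM in the 3 primed clusters. The clusters of the 2 experiments were made separately, and their numbers do not match.

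**Figure D5:**
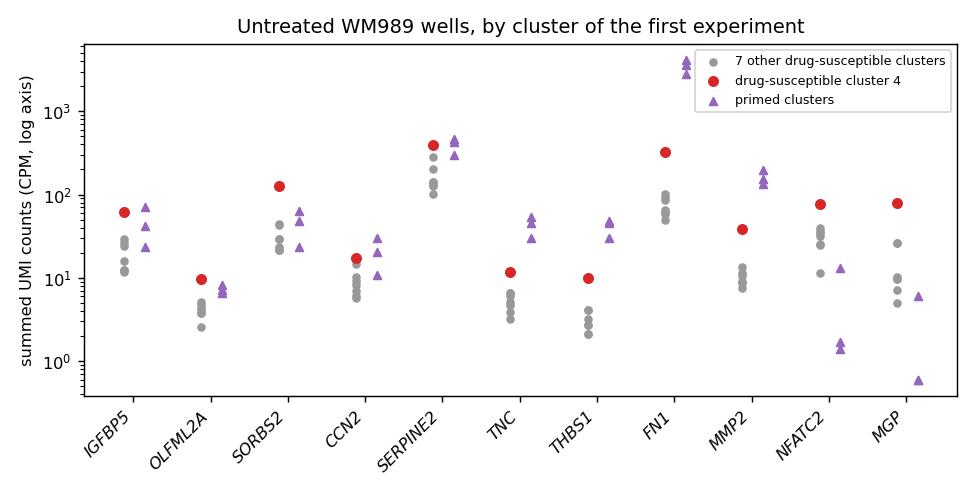
CPM on a log axis in the clusters of the first experiment, untreated WM989 cells, for 7 markers (LNCAROD left out for its few counts), FN1, MMP2, NFATC2 and MGP. Drug-susceptible cluster 4 (red) is above the other 7 drug-susceptible clusters (grey) for each gene, and primed clusters (purple) are above it for FN1 and MMP2 and below it for NFATC2 and MGP.

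The states of the same wells were set side by side as a description, since wells can hold parts of the same culture. IGFBP5 ran from 11.8 to 43.1 CPM (median 22.9) in drug-susceptible and from 27.4 to 79.4 CPM (median 40.5) in primed cells. THBS1 ran from 1.27 to 18.8 CPM (median 4.65) and from 18.3 to 78.4 CPM (median 40.5). SORBS2 was higher in primed cells in 4 of 8 wells, with medians of 48.8 CPM in drug-susceptible and 43.1 CPM in primed cells, and LNCAROD was near 0 in both. In WM983B, another melanoma line measured in 1 library with no replicate, THBS1 was at 126 CPM in primed against 30.3 CPM in drug-susceptible cells, SERPINE2 at 1997 against 777 CPM and IGFBP5 at 21.3 against 5.31 CPM, while LNCAROD had few counts.

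Chromatin was measured by ATAC-seq in sorted untreated WM989 cells, 3 libraries a sort, so it bears on the marker loci and not on cluster 3 cells. The labels call the reference sort Mix, while the methods list in its place cells negative for both EGFR and NGFR, and which of these the Mix libraries held was not settled here. Values are the fold enrichment of a peak over local background, and a library with no peak listed is set at 0. Of 151844 regions, 10526 were higher (6.93%) and 2214 lower (1.46%) in EGFR-NGFR-High than in Mix cells by limma with Benjamini-Hochberg adjustment. Of 113 regions in or within 10 kb of the 8 markers, 12 were higher and none lower, in SORBS2 (5), TNC (4), SERPINE2 (2) and LNCAROD (1). In EGFR_High cells, where 1.52% of all regions were higher and 1.2% lower than in Mix, 3 of the 113 were higher, in SORBS2 (2) and TNC (1), and none was lower. In NGFR-High cells, where 4.97% were higher and 1.58% lower, 12 were higher, in SORBS2 (4), LNCAROD (3), TNC (3) and SERPINE2 (2), and 1 LNCAROD region was lower. The 3 comparisons share the Mix libraries.

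The region chr4:185932967-185933485, at a SORBS2 start and around the sequence with TGACTCA printed above, was listed at 11.3, 7.09 and 6.95 in EGFR-NGFR-High and in none of the 3 Mix libraries (adjusted p = 6.5e-06, limma). It was also listed in all 3 EGFR_High (3.84 to 4.41) and all 3 NGFR-High libraries (4.37 to 7.52). A further SORBS2 start region, chr4:185774408-185776864, was at 32.7, 31.2 and 26.3 against 10.8, 11.8 and 11.1 in Mix (log2 1.34 ± 0.18 SE, adjusted p = 0.0014, limma). At both starts all 3 EGFR-NGFR-High libraries lay above all 3 Mix libraries, as they did in 16.4% of all regions. At SERPINE2, the start region chr2:224038189-224040483 was at 47.9, 43.5 and 36.7 against 24.6, 23.1 and 26.6 (log2 0.76 ± 0.16, adjusted p = 0.019, limma). At TNC, chr9:115058173-115059912, at a start that is not the one printed above, was at 42.8, 26.9 and 29.3 against 16.6, 16.5 and 15 (log2 0.97 ± 0.21, adjusted p = 0.021, limma). An intronic LNCAROD region, chr10:52451676-52452225, was listed at 14.6, 9.45 and 8.93 and in no Mix library.

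The start regions of IGFBP5, CCN2 and THBS1, all open in Mix cells, were not called. CCN2 had 31.2, 32.1 and 24.8 against 30.5, 28.3 and 23.7 in Mix, THBS1 26.5, 25.5 and 22.3 against 18.8, 16.5 and 23.7, and IGFBP5 7.14, 5.20 and 6.95 against 4.48, 6.13 and 8.71. The TNC start region around the printed sequence, chr9:115117870-115119475, was at 36.9, 30.7 and 24.3 against 21.1, 24.5 and 30.5 and was not called either. In windows of 300 bases the AP-1 letters were in 6 of the 12 called marker regions, close to the 49.6% of all 10526 regions higher in EGFR-NGFR-High. They were in 17.7% of the 113 marker regions and in 20.2% of all regions. The TEAD letters were in 2 of the 12, 27.2% of the higher regions, 22.1% of the marker regions and 20.4% of all, and the SMAD letters in 6 of the 12, 50%, 53.1% and 48.6%.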

How the data were processed

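Single-cell RNA-seq of WM989 and WM983B cells and ATAC-seq of sorted WM989 cells were read from the processed files. The authors deposited raw UMI counts of each cell's genes. Cell Ranger had aligned reads to hg38 (version and annotation not given in the sources used here), and had pooled the libraries with no depth normalization. Cells were then filtered in Seurat on genes per cell and mitochondrial percent. The deposited percent of mitochondrial UMIs, cluster, phase, replicate and condition labels were used as they stand. The authors' clusters follow SCTransform or integration in Seurat V3. For ATAC-seq, per the labels and methods, reads were aligned with Bowtie2 2.3.4.1 and filtered with SAMtools 1.1, and MACS2 2.1.1.20160309 called peaks in each library. The deposited fold enrichment is a ratio over local background, and the deposited −log10 q-value ranked peaks in 1 alternative.

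The members, gene lists and tests were chosen with earlier results of these data known. Counts were summed over cells of a group and replicate, scaled to CPM, and compared as log2(CPM + 1) per replicate. Genes named are the 8 markers, the 12 highest and 8 lowest by mean log2 ratio to other non-primed TGFB1 cells, genes the study names, up to 4 of each list with the largest ratio to untreated cells, and 5 at each end for untreated members; other genes of a called set were named after their values were seen. Whole-library counts (70239657 to 122420544 UMIs) entered edgeR 4.0.16 under R 4.3.3 (filterByExpr, TMM factors 0.941 to 1.05, two-sided quasi-likelihood test, threshold 0.05, 3 residual degrees of freedom). Since each parallel sample supplied all 4 plates, the replicate was a block, and r2 minus r1 correlated between treatments at 0.257 to 0.365 over genes. An ATAC region needed a peak in 3 of 12 libraries, and limma 3.58.1 tested log2(fold enrichment + 1). Exact Poisson and Clopper-Pearson 95% intervals cover counting error only. The edgeR and limma fits were tested on simulated data. DESeq2 1.42.0, other scalings, filters and subsets were alternatives. Some genes are not reported here.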

Additional observations from a re-analysis of the deposited data

How the results depend on the processing

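Cluster 3 against other non-primed TGFB1 cells gave 18 higher and 91 lower genes. A pseudocount of 5 CPM gave 11 higher, a minimum of 5 CPM 41, and a minimum of 50 CPM 7 higher and 57 lower. G1 cells alone gave 32 higher and 9 lower. Leaving out a replicate gave 21 to 32 higher and 102 to 117 lower, with 32 without r1. Against untreated non-primed cells, a minimum of 5 CPM gave 130 higher, a minimum of 50 CPM 31 higher and 26 lower, and G1 cells alone 10 lower, where AURKA turned to 0.07; leaving out a replicate gave 71 to 78 higher and 62 to 65 lower. Checks added after the data were seen left out a replicate for the untreated members (107 to 211 higher, 95 to 117 lower) and for TGFB1 cells outside cluster 3 (16 to 22 higher and 0 to 6 lower, with 22 and 6 without r2). Another minimum changes how many genes are tested; the cause of the other shifts was not tested.

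The mean share of cells in cluster 3 was 34.5% under TGFB1, and 49.4% of non-primed and 47.8% of G1 cells. With G1 cells alone the untreated share was 2.36%, TGFBRi 0.254% and PI3Ki 1.27%, and with at least 10000 UMIs per cell the TGFBRi share was 0.0816%.

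Without the replicate block edgeR gave 2161 higher and 1438 lower genes under TGFB1, 11 and 29 under TGFBRi, and 261 and 388 under PI3Ki. With non-primed cells only TGFB1 gave 1533 and 1132, where SOX10 turned to 0.14 and, under TGFBRi, CCN2 to -0.07 and MMP2 to 0.21. DESeq2 gave 1982 higher under TGFB1, 125 under TGFBRi and 692 under PI3Ki. No filter gave 349 higher under TGFBRi, and only the 4 libraries compared gave 1973 higher and 2220 lower under PI3Ki. Leaving out a library gave 1971 to 2473 higher and 1193 to 1688 lower under TGFB1 (fewest without TGFB1 r1; 1441 and 1406 lower without untreated r1 and r2), 61 to 568 and 107 to 578 under TGFBRi (fewest without untreated r2, most without TGFBRi r1; 101 higher without untreated r1), and 259 to 548 and 460 to 754 under PI3Ki, where each of the 4 libraries moved the counts by over 1.5 times. Among these the TGFBRi value of CCN2 ran from -0.18 to 0.22 and that of MMP2 from -0.35 to 0.24, both uncalled in the full set. Over all alternatives for named genes in the count test, 353 values kept direction and call, 18 gained and 32 lost the call, and 7 changed sign.

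For ATAC-seq the replicate block gave 10161 higher and 1888 lower regions; same-numbered libraries correlated at -0.012 to 0.094, so the numbers did not pair them. The 50000 highest-ranked peaks gave 2901 and 1405, and leaving out a replicate 5066 to 7585 higher and 1100 to 1638 lower (5066 without replicate 1, 6475 and 1100 without replicate 2, 1310 lower without replicate 3). Depth limits genes under 20 CPM and the cluster 3 members of the untreated (115 cells), PI3Ki (75) and TGFBRi (16) libraries.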
